A study of Homo sapiens with 4 samples.

Results

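The 10 genes described here make heat shock proteins: HSPA1A and HSPA1B (the stress-inducible HSP70 pair), HSPA8 (the constitutive HSP70, HSC70), DNAJB1 (an HSP40 that stimulates the HSP70 ATPase), HSPH1 (an HSP110 that exchanges HSP70 nucleotide), HSPB1 (the small heat shock protein HSP27), HSP90AA1 and HSP90AB1 (the inducible and the constitutive cytosolic HSP90), and HSPD1 and HSPE1 (HSP60 and HSP10). They were taken by gene name from the deposited expression table, where each name had 1 row, which makes 10 of the 58735 genes listed. The first 8 work mainly in the cytosol and nucleus, whereas HSPD1 and HSPE1 form the chaperonin of the mitochondrial matrix, so they are described as a pair of their own. All 10 had a mean of at least 1 FPKM (fragments per kilobase of gene and of library size) over the libraries and stayed among the 14429 genes that were compared.

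The series compared colorectal cancer cells grown attached to plastic with spheroids enriched for cancer stem-like traits, in human colorectal cancer cells labelled HCT116 and LOVO, by mRNA sequencing. Both lines were labelled WT, and each growth form of each line gave 1 library, so there were 4 libraries and no replicate. Adherent cells were labelled as given no treatment and were kept in RPMI-1640 with fetal bovine serum. Spheroids were labelled as treated at 1 mg/ml of an agent that the labels leave unnamed. The study describes spheroid formation under oxaliplatin, a platinum drug that crosslinks DNA, at 1 μg/ml, and its methods name serum-free medium with B27, N2, bFGF and EGF on low-attachment plates. The growth form, the medium and the drug therefore changed together in both lines, and their parts in any difference cannot be told apart. In bulk RNA, fewer cells of a kind and less RNA per cell cannot be told apart either.

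Heat shock proteins bind unfolded or partly folded proteins and let them fold, be held or be destroyed. HSP70 works in a cycle in which a J-domain partner delivers the client and closes HSP70 on it, and an exchange factor opens it again, and HSP90 takes over many kinases and hormone receptors from HSP70 with the help of co-chaperones. Heat shock factor 1 (HSF1), held inactive by chaperones in unstressed cells, turns on the inducible members through heat shock elements, which are inverted repeats of a short GAA unit. Cancer cells often carry high levels of these proteins, and HSP27, HSP70 and HSP90 have been studied as drug targets in colorectal tumours.

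The libraries held between 15483569 (HCT116 spheroids) and 20429147 (adherent HCT116) reads on genes, and mitochondrially encoded genes took 6.77%, 11.1%, 3.65% and 3.97% of them in the adherent HCT116, HCT116 spheroid, adherent LOVO and LOVO spheroid libraries. Of 11 colon epithelial markers, 6 and 7 reached 1 FPKM in the HCT116 libraries, with EPCAM at 85.6 and 79.3 and CDH1 at 31.1 in both. KRT20, a keratin of differentiated colon epithelium, was at 0.93 and 7.45 in the adherent and spheroid HCT116 libraries, and KRT19 at 808 and 543. In the libraries labelled LOVO, 3 and 4 did so, EPCAM was at 0.93 and 1.5, CDH1 at 0.12 and 0.01, and CDX2, VIL1, CDX1 and CEACAM5 had no read, while KRT8 (189 and 81.6), KRT18 (122 and 98.8) and KRT19 (14.9 and 4.85) were present. The summed level of the 11 markers was 1754, 1288, 327 and 187 FPKM in the 4 libraries. LOVO cells are known as an epithelial line with EPCAM and CDH1, so the identity of the cells in these libraries is in doubt. LOVO below stands for the libraries so labelled, and every value set between the lines rests on that label. The 8 markers of blood, stromal and endothelial cells summed to 5.85, 16.4, 11.6 and 13.9 FPKM. COL1A1 led them in the first 3 libraries and PECAM1 in LOVO spheroids (0.04 in adherent LOVO cells and 6.35 in the spheroids). PTPRC, the pan-leukocyte marker, was at no more than 0.01 throughout. The part of these markers and of the mitochondrial share in the results was not tested.

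Promoter sequences of the members are shown to describe where matches to the heat shock element lie. Whether promoter sequence had a part in any difference between libraries was not tested. RefSeq windows of 300 bases (GRCh38.p14, from 250 bases before the start to 50 after it) were found for all 10 members, 16 windows in all. They were searched for GAANNTTC and TTCNNGAA, the pairings of adjoining inverted GAA units, each of which is its own reverse complement. Among all 35116 windows, 13.5% held at least 1 such match and 0.490% held both motifs overlapping by the 3 bases they share, which makes 3 units in a row. Of the 16 windows of the members, 9 held a match, and these belonged to 8 members. A run of 3 units was found for HSP90AA1, HSP90AB1, HSPA8 and HSPD1. Capitals mark the matches, and every sequence is written 5′ to 3′ on the gene's strand.

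HSPA1A, plus strand, chr6:31815293-31815592: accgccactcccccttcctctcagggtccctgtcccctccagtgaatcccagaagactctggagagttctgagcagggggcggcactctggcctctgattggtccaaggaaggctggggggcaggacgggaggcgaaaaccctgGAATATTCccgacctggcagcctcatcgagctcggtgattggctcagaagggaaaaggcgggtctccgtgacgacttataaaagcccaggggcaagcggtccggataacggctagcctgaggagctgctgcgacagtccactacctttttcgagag
HSPA1B, plus strand, chr6:31827488-31827787: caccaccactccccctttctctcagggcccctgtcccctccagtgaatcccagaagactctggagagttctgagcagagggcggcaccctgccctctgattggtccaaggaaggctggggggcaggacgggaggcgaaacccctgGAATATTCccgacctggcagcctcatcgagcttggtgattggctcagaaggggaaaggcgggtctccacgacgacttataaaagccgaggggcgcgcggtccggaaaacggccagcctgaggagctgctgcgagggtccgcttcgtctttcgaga
DNAJB1, minus strand, chr19:14518348-14518647: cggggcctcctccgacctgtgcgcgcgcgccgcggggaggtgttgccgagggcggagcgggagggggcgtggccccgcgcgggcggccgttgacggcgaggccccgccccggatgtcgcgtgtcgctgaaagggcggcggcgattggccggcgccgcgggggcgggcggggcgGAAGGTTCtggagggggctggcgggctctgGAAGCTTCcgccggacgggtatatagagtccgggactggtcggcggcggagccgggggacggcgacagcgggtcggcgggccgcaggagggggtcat
HSPD1, minus strand, chr2:197499791-197500090: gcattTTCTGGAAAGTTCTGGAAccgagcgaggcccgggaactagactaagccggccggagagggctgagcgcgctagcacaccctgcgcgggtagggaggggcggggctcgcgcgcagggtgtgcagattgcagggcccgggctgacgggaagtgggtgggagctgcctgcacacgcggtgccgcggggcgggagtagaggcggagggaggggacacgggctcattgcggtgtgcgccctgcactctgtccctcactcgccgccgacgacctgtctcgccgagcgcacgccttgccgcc
HSPH1, minus strand, chr13:31162339-31162638: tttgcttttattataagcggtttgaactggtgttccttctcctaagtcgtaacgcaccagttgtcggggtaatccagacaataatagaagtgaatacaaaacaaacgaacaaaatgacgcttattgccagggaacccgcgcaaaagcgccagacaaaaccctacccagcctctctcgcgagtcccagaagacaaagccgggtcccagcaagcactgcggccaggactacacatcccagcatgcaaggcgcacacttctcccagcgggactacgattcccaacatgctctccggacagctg

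The HSPA1A and HSPA1B windows matched at 277 positions, with 22 mismatches and 2 gaps (92.0% identical), and each held 1 match, from -106 to -99 and from -105 to -98 relative to the start. The DNAJB1 window held 2 matches between -77 and -40. The HSPD1 window held 3 overlapping matches between -245 and -228, which makes 4 units in a row, at the edge of the window that is farthest from the start. The HSPH1 and HSPE1 windows held none, which says only that these letters are not in those windows, since working elements may carry mismatches. A further DNAJB1 window (chr19:14517888-14518187) held 1 match, from 2 to 9 bases after its start, and is not shown. The matches of the HSP90 pair and of HSPB1 are shown as short stretches, to set them beside the members above.

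HSP90AA1, minus strand, within chr14:102086995-102087294: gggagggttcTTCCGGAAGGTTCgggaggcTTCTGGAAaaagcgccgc
HSP90AB1, plus strand, within chr6:44247693-44247992: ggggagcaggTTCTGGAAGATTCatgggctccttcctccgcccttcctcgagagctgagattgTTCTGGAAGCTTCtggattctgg
HSPB1, plus strand, within chr7:76302423-76302722: cttaacgagaGAAGGTTCcagatgaggg

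Relative to the start of the window each stretch came from, the matches reached from -88 to -61 for HSP90AA1, from -165 to -100 for HSP90AB1 and from -182 to -175 for HSPB1. The HSP90AB1 windows at chr6:44245944-44246243 and chr6:44246851-44247150, which lie upstream of the one used, held no match. Nor did the further windows of HSP90AA1 (chr14:102139700-102139999), HSPD1 (chr2:197500225-197500524) and DNAJB1 (chr19:14529222-14529521). The HSPA8 window (chr11:123062087-123062386) held 4 matches, 2 runs of 3 units among them, between -230 and -43, and is not shown because they lie far apart. A match is a string of letters and does not show that HSF1 was bound there.

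The 10 members together took 0.939% of all reads on genes in the adherent HCT116 library (95% exact binomial interval 0.935 to 0.943) and 0.655% in its spheroids (0.651 to 0.659), against 0.429% in the adherent LOVO library (0.426 to 0.431) and 0.416% in its spheroids (0.413 to 0.419). The share was thus lower in HCT116 spheroids than in adherent HCT116 cells, and the LOVO libraries were close to each other. With the mitochondrially encoded genes left out of the total, the shares were 1.01%, 0.737%, 0.445% and 0.433%, in the same order. These intervals, like the others below, cover counting error only, because reads without molecular identifiers are not independent molecules and a single library carries no spread between cultures.

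**Figure D1:**
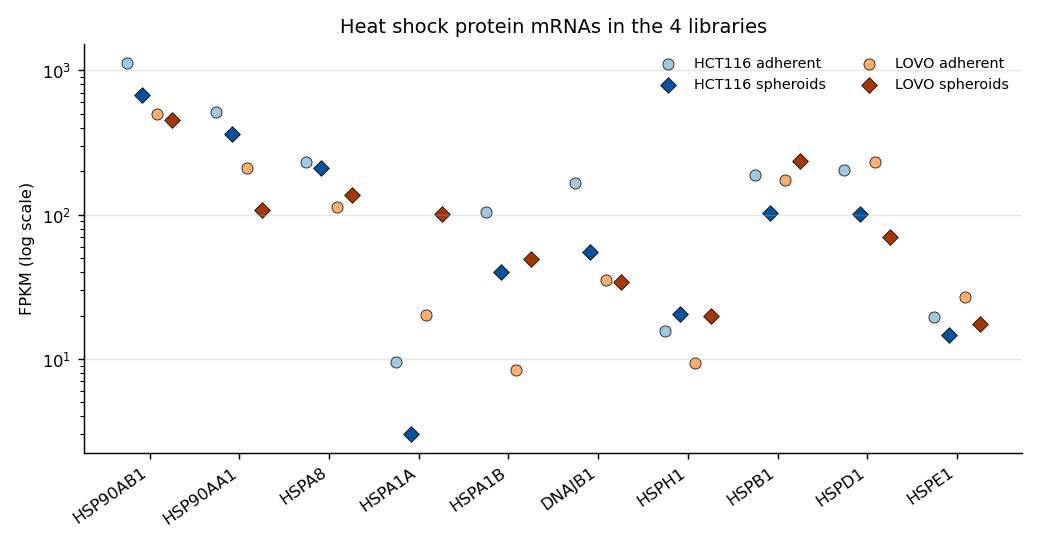
FPKM on a log axis for each of the 10 members, with circles for adherent cells and diamonds for spheroids, blue for HCT116 and orange for LOVO, 1 point for each library. HSP90AB1 is the highest member in all 4 libraries (451 to 1131 FPKM), and the points of HSPA1A spread furthest, from 3.02 to 101.

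HSP90AB1 was the most abundant member per length in every library, at 1131, 671, 498 and 451 FPKM in adherent HCT116, HCT116 spheroids, adherent LOVO and LOVO spheroids, and ranked 27th, 28th, 50th and 44th among all genes. HSP90AA1 and HSPA8 followed in both HCT116 libraries, HSPD1 was second in adherent LOVO cells (231) and HSPB1 was second in LOVO spheroids (235). At the low end stood HSPA1A in both HCT116 libraries, HSPA1B in adherent LOVO cells and HSPE1 in LOVO spheroids. Neighbours in the order had separate counting intervals except HSPB1 and HSPD1 in HCT116 spheroids (103 and 101) and HSPH1 and HSPA1B in adherent LOVO cells (9.34 and 8.38). The table's lengths count every annotated exon of a gene, so members whose main transcript is much shorter than that, such as HSPE1 (1977 bases, with coding transcripts of 478 to 950), are placed low by the unit itself.

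HSPA1A and HSPA1B make nearly identical HSP70 proteins that are induced by heat and by damaged protein. Both were lower in HCT116 spheroids than in adherent HCT116 cells and higher in LOVO spheroids than in adherent LOVO cells, and HSPA1A and HSPA1B were the 2 members with the largest differences in LOVO. HSPA1A (ENSG00000204389, chr6:31815464-31817946, GRCh38) was at 9.54 FPKM (483 reads), 3.02 (126), 20.2 (899) and 101 (5046) in adherent HCT116, HCT116 spheroids, adherent LOVO and LOVO spheroids. LOVO spheroids were the highest library and HCT116 spheroids the lowest. Its log2 ratio of FPKM, spheroids over adherent, was -1.66 in HCT116 (95% exact counting interval -1.95 to -1.37, 3.16-fold lower) and 2.32 in LOVO (2.22 to 2.43, 5.00-fold higher).

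HSPA1B (ENSG00000204388, chr6:31827735-31830255) was at 104 FPKM (5349 reads) in HCT116 grown adherent, 40.3 (1705) in its spheroids, 8.38 (379) in LOVO grown adherent and 49.3 (2501) in its spheroids. Adherent HCT116 cells were the highest for this gene and adherent LOVO cells the lowest. The log2 ratio was -1.37 in HCT116 (-1.45 to -1.29, 2.59-fold lower) and 2.56 in LOVO (2.40 to 2.72, 5.88-fold higher). Although the pair moved in step with growth form, the member that carried most of the reads differed by line. HSPA1A took 8.28% and 6.88% of the pair's reads in adherent HCT116 cells and HCT116 spheroids, and 70.3% and 66.9% in the LOVO libraries. In FPKM, HSPA1A stood at 0.0917 and 0.0750 of HSPA1B in HCT116 and at 2.41 and 2.05 of it in LOVO, with intervals that did not overlap between lines (0.0834 to 0.101, 0.0621 to 0.0900, 2.13 to 2.72 and 1.95 to 2.15).

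The genes share sequence, which limits how far they can be separated. Of all 50-base stretches in HSPA1A transcripts, 71.3% also occur in another gene, and 73.5% of those of HSPA1B do, so the split depends on how reads that fit both were counted, and this rule is not given in the sources used here. HSPA1B also shares 920 exon bases on the same strand with AL671762.1, which had no read in any library. Whether HSPA1B reads there were left out is not given either. The sum of the pair does not depend on how shared reads were divided between the genes, though it would on shared reads left out. It was 114, 43.3, 28.6 and 150.3 FPKM in the order above, a log2 ratio of -1.39 in HCT116 (-1.47 to -1.32, 2.63-fold lower) and 2.40 in LOVO (2.31 to 2.48, 5.26-fold higher). Set against HSPA8, the constitutive HSP70, the pair stood at 0.493 and 0.205 in adherent and spheroid HCT116 and at 0.253 and 1.10 in adherent and spheroid LOVO. The pair was thus highest relative to HSPA8 in LOVO spheroids. Only the order of the libraries can be read from this ratio, because the table counts 4849 exon bases for HSPA8, whose longest coding transcript has 2463, and in reads the pair stayed below HSPA8 in LOVO spheroids too (7547 and 13314).

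**Figure D2:**
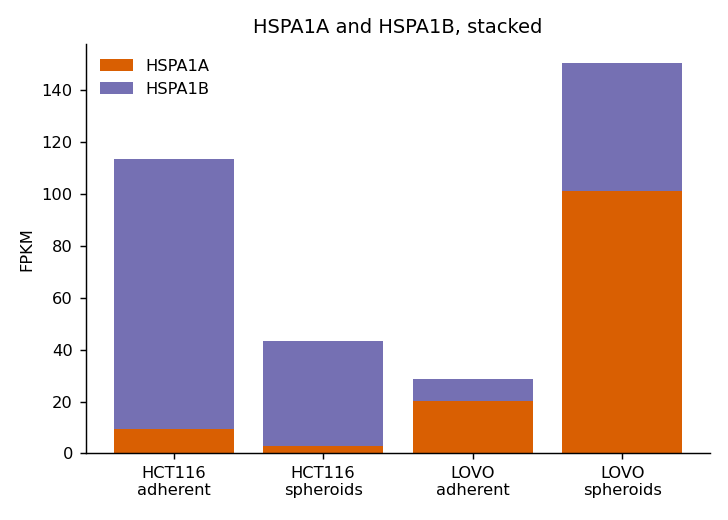
FPKM of HSPA1A (orange) and HSPA1B (purple) stacked for each of the 4 libraries, with 1 library behind each bar and no error bars. The bars reach 114, 43.3, 28.6 and 150.3 FPKM from left to right, mostly HSPA1B in HCT116 and mostly HSPA1A in LOVO.

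HSPA8 (ENSG00000109971, chr11:123057489-123063230), which folds new proteins in unstressed cells, moved little with growth form on the FPKM scale. It was at 230.4 FPKM (22768 reads), 211 (17186), 113 (9813) and 136 (13314), so both HCT116 libraries stood above both LOVO libraries. The log2 ratio was -0.13 in HCT116 (-0.16 to -0.10) and 0.27 in LOVO (0.24 to 0.31), or 1.09-fold lower and 1.21-fold higher. The library size behind FPKM was 0.998 times the reads on genes in adherent HCT116 cells and 1.09 times in HCT116 spheroids. It was 0.907 times in adherent LOVO cells and 1.05 times in LOVO spheroids. The small differences in both lines therefore depend on that library size. With TPM the HSPA8 difference was -0.11 in HCT116 and 0.48 in LOVO.

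DNAJB1 (ENSG00000132002, chr19:14514770-14529770), the J-domain partner that is induced together with HSP70, was high in 1 library. It was at 165 FPKM (12322 reads) in HCT116 grown adherent and 54.9 (3386) in its spheroids, and at 35.1 (2312) and 33.9 (2505) in the same order in LOVO. It was 3.0-fold lower in HCT116 spheroids than in adherent HCT116 cells (log2 ratio -1.58, -1.64 to -1.53), the lowest difference of the 10 members in that line on the log2(FPKM + 1) scale. In LOVO its ratio was -0.05 with an interval that spans 0 (-0.13 to 0.03). The LOVO value turned to 0.15 on the TPM scale and to 0.01 when centred on the median of all genes, so no direction is given for it. DNAJB1 thus did not accompany the higher HSPA1A and HSPA1B of LOVO spheroids, although it was lower with them in HCT116 spheroids. Its exons share 211 bases with TECR on the other strand (2626, 1306, 2811 and 3314 TECR reads), and whether the counting used strand is not given in the sources used here.

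HSPH1 (ENSG00000120694, chr13:31134974-31162388) was the 1 member of 10 that was higher in the spheroids of both lines. It was at 15.5 FPKM (2653 reads), 20.4 (2877), 9.34 (1405) and 19.7 (3324), and both spheroid libraries lay above both adherent libraries. The log2 ratio was 0.40 in HCT116 (0.32 to 0.47, 1.32-fold higher) and 1.08 in LOVO (0.99 to 1.17, 2.11-fold higher). None of its 50-base stretches occur in another gene.

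**Figure D3:**
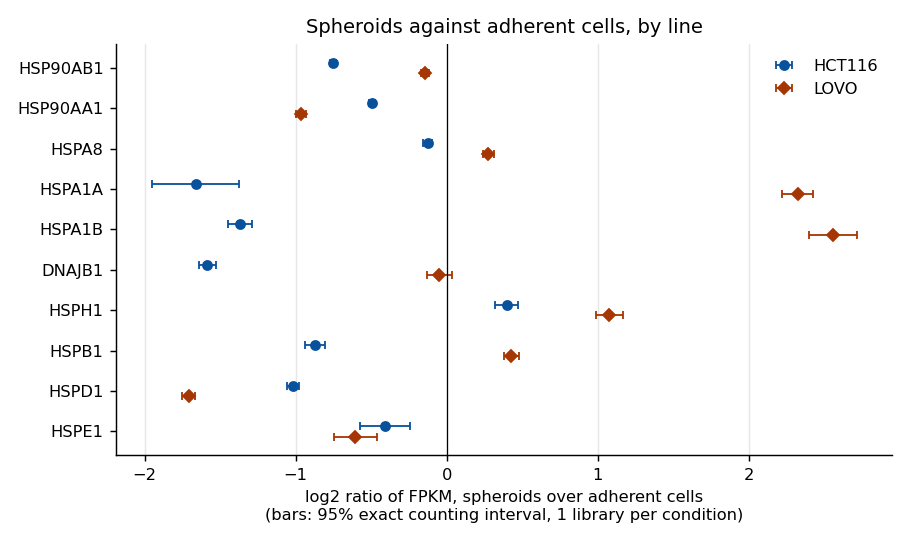
Log2 ratio of FPKM, spheroids over adherent cells, for each member in HCT116 (blue circles) and LOVO (orange diamonds), with bars for the 95% exact counting interval of 1 library against 1. HSPA1A and HSPA1B lie below 0 in HCT116 (-1.66 and -1.37) and above 2 in LOVO (2.32 and 2.56). HSPD1, HSPE1, HSP90AA1 and HSP90AB1 lie below 0 in both lines, HSP90AB1 close to 0 in LOVO (-0.15). DNAJB1 lies below 0 in HCT116 (-1.58), and its LOVO interval spans 0 (-0.13 to 0.03).

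HSP90AA1 and HSP90AB1 make the cytosolic HSP90 isoforms, of which HSP90AA1 is the stress-responsive one. HSP90AA1 (ENSG00000080824, chr14:102080738-102139699) was at 512 FPKM (54784 reads), 364 (32056), 209 (19707) and 107 (11317), lower in the spheroids of each line and lower in LOVO than in HCT116. Its log2 ratio was -0.49 in HCT116 (-0.51 to -0.47, 1.41-fold lower) and -0.97 in LOVO (-1.0 to -0.93, 1.95-fold lower). HSP90AA1 thus went the other way from the inducible HSP70 pair in LOVO.

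HSP90AB1 (ENSG00000096384, chr6:44246166-44253888), with 68721, 33584, 26629 and 27018 reads behind the FPKM given above, was 1.69-fold lower in HCT116 spheroids (log2 ratio -0.75, -0.77 to -0.74). In LOVO its libraries lay close together (1.11-fold lower, log2 ratio -0.15, -0.17 to -0.12), and on the TPM scale the difference was 0.06, so its direction there depends on the scaling. HSP90AA1 stood at 0.453 and 0.542 of HSP90AB1 in adherent and spheroid HCT116, and at 0.420 and 0.238 in adherent and spheroid LOVO. The balance therefore leaned furthest to the constitutive isoform in LOVO spheroids. Reads on rows named as HSP90 pseudogenes, which were picked after the data were seen, came to at most 0.431% of the HSP90AA1 reads and 0.210% of the HSP90AB1 reads in any library. Of their 50-base stretches, 11.3% and 16.6% also occur in another gene, the latter the largest share among the members outside the HSPA1A and HSPA1B pair.

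HSPB1 (ENSG00000106211, chr7:76302544-76304295), which holds unfolded protein without ATP and binds actin, was at 188 FPKM (6256 reads), 103 (2814), 174 (5111) and 235 (7713). HCT116 spheroids were the lowest library and LOVO spheroids the highest. It was 1.83-fold lower in HCT116 spheroids (log2 ratio -0.87, -0.94 to -0.81) and 1.35-fold higher in LOVO spheroids (0.43, 0.38 to 0.48). Among 8 other small heat shock proteins, HSPB8 (6.14, 5.74, 16.7 and 8.29 FPKM) and HSPB7 (0.06, 0.24, 2.35 and 1.64) were the 2 that had a mean of at least 1 FPKM. HSPB8 was lower in LOVO spheroids than in adherent LOVO cells. HSPB7 passed this filter only through the LOVO libraries, so its direction there is not set beside that of HSPB1. CRYAB, αB-crystallin, was at 0.00, 0.10, 0.85 and 1.62 FPKM and was named after its values were seen.

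HSPD1 and HSPE1 lie head to head on chromosome 2 and make the barrel and the lid of the mitochondrial chaperonin. Each was lower in the spheroid library of either line, HSPD1 by more. HSPD1 (ENSG00000144381, chr2:197486581-197516737) was at 205 FPKM (17700 reads), 101 (7218), 231 (17552) and 70.5 (6023), and both spheroid libraries lay below both adherent libraries. The log2 ratio was -1.02 in HCT116 (-1.05 to -0.98, 2.02-fold lower) and -1.71 in LOVO (-1.75 to -1.67, 3.27-fold lower). It was the only member past a difference of 1 in the same direction in both lines on the log2(FPKM + 1) scale, and in HCT116 it was near that limit, at -1.01, with -0.995 on the TPM scale and -0.98 when centred.

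HSPE1 (ENSG00000115541, chr2:197499994-197503457) was at 19.4 FPKM (782 reads), 14.6 (486), 26.7 (946) and 17.5 (697). The spheroid libraries were again the lower of each line, with a log2 ratio of -0.41 in HCT116 (-0.57 to -0.24, 1.33-fold lower) and -0.61 in LOVO (-0.75 to -0.46, 1.52-fold lower). The ratio of HSPD1 to HSPE1 was 10.5, 6.92, 8.64 and 4.02 in the 4 libraries, and with named pseudogenes added to each gene it was 10.1, 6.53, 8.21 and 3.80. Reads on 17 HSPD1 pseudogenes came to 0.996% to 1.81% of those on HSPD1, and reads on 26 HSPE1 pseudogenes to 5.63% to 7.82% of those on HSPE1. The genes share 281 exon bases on opposite strands, and HSPE1 shares 192 on the same strand with HSPE1-MOB4. Whether the counting used strand, or left out shared reads, is not given in the sources used here. HSPE1, with far fewer reads than HSPD1, and the ratio of the pair may therefore depend on that rule.

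Counted against all 14429 genes compared, the members leaned down in HCT116 and spread in both directions in LOVO. On the log2(FPKM + 1) scale in HCT116, 9 of 10 were lower and 1 higher in spheroids, where 53.4% and 45.8% of all genes were. The median difference was -0.81 beside -0.03 over all genes. A difference below -1 was seen for 4 members (HSPA1A, HSPA1B, DNAJB1 and HSPD1), where 3.33% of all genes were called, and above 1 for 0 members, where 2.19% were called. No member was past 2 in HCT116 (0.201% of all genes above and 0.506% below). In LOVO 5 were higher and 5 lower, near the shares of all genes (45.5% and 53.5%), with a median of 0.11 beside -0.06 over all genes. A difference above 1 was seen for 3 members (HSPA1A, HSPA1B and HSPH1) against 8.57% of all genes, and below -1 for HSPD1 alone against 7.85%. Past 2 were HSPA1A (2.27) and HSPA1B (2.42), where 1.81% of all genes were above 2 and 0.943% below -2.

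Next to the limit of 1 in LOVO stood HSPH1 just past it at 1.00 and HSP90AA1 just short of it at -0.96. With HSPA1A and HSPA1B summed into 1 gene, a choice made after the data were seen, the median over the remaining 9 rows was -0.75 in HCT116 and -0.049 in LOVO, so the sign of the LOVO median rests on counting the pair as separate genes. Without HSPD1 and HSPE1 the LOVO median over 8 genes was 0.35 and the HCT116 median -0.81.

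**Figure D4:**
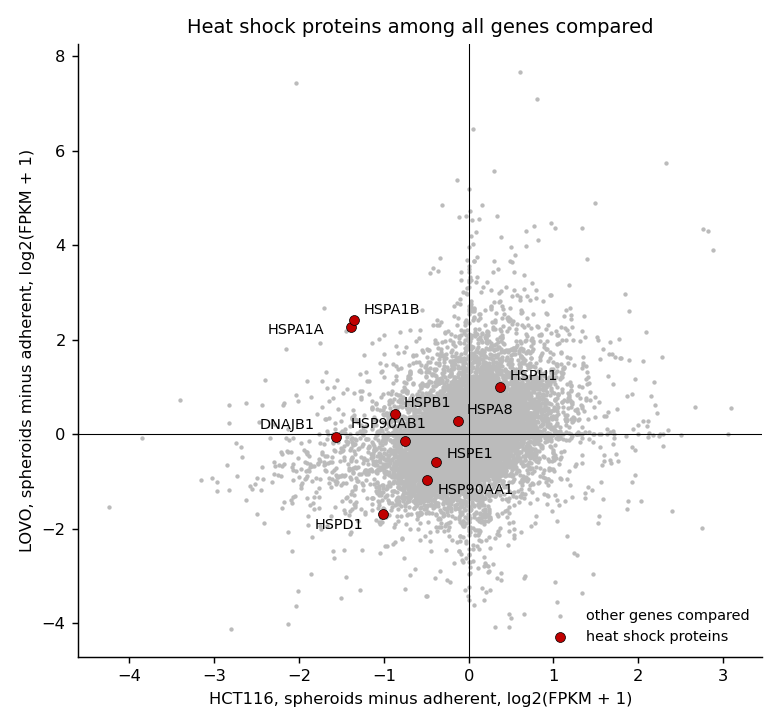
Each point is a gene, with the difference between spheroids and adherent cells on the log2(FPKM + 1) scale in HCT116 on the horizontal axis and in LOVO on the vertical axis, grey for the genes compared and red for the 10 members. HSPA1A and HSPA1B sit at the upper left (-1.39 and 2.27, -1.35 and 2.42), HSPD1 at the lower left (-1.01 and -1.70) and HSPH1 at the upper right (0.37 and 1.00).

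For HSPA1A, HSPA1B, HSPA8 and HSPB1 the spheroid difference had opposite directions in the lines. How many of all genes did so was not counted, so the number of members is not read as a result. On the TPM scale DNAJB1 (-1.56 in HCT116 and 0.15 in LOVO) and HSP90AB1 (-0.74 and 0.06) also had opposite directions. The HSPA8 difference in HCT116 was small (-0.13) and depends on the library size behind FPKM. The log2 ratio in LOVO exceeded that in HCT116 by 3.98 for HSPA1A (counting interval 3.68 to 4.28), 3.93 for HSPA1B (3.75 to 4.10), 1.30 for HSPB1 (1.22 to 1.38) and 0.40 for HSPA8 (0.35 to 0.45). With 1 library per condition, the difference between lines was not tested against the spread of cultures.

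Between the lines, adherent LOVO cells had less of most members than adherent HCT116 cells. On the log2(FPKM + 1) scale 5 members were more than 1 lower (HSPA1B, HSPA8, DNAJB1, HSP90AA1 and HSP90AB1; 16.4% of all genes were) and HSPA1A alone was more than 1 higher (17.4% were), and the median was -0.85 beside 0.07 over all genes. The widest gaps were 12.4-fold for HSPA1B and 4.69-fold for DNAJB1, both lower in LOVO. Among spheroids, HSPA1A was 33.4-fold higher and HSPB1 2.29-fold higher in LOVO, and HSP90AA1 was 3.39-fold lower, with a median over the members of -0.28 beside 0.04. These made 2 members above 1, where 17.7% of all genes were called, and 1 below -1, where 15% were. The HSPA1B gap between lines was 1.22-fold in spheroids (log2 ratio 0.29, 0.20 to 0.38, higher in LOVO), against 12.4-fold in adherent cells. HSPH1 in spheroids differed between lines by less than counting error (log2 ratio -0.05, -0.12 to 0.02).

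A fit over both lines with limma on log2(FPKM + 1), with the cell line as a covariate and 1 residual degree of freedom, called none of the 14429 genes at a Benjamini-Hochberg adjusted p below 0.05 (0%), and 1545 genes had an unadjusted p below 0.05. HSPD1 had the lowest p of the members, with a mean difference of -1.35 (SE 0.32), an unadjusted p of 0.0089 and a limma adjusted p of 0.462. HSPH1 had 0.69 (SE 0.28, limma adjusted p 0.464) and HSP90AA1 had -0.73 (SE 0.32, limma adjusted p 0.471), each with the same direction in 2 of 2 lines. HSPA1A (0.44, SE 0.87) and HSPA1B (0.54, SE 0.90), which moved in opposite directions, had limma adjusted p of 0.847 and 0.819. The other 5 members had limma adjusted p between 0.486 and 0.933.

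The rest of the chaperone system was read from lists of genes, each described by its counts and median because no test of a list was made. The lists were read on the FPKM scale only. TPM moved the LOVO median of all genes from -0.06 to 0.10, so small LOVO differences and list counts around 0 depend on the scaling. Over all genes compared, 53.4% were lower in HCT116 spheroids and 53.5% in LOVO spheroids, while 45.8% and 45.5% were higher. Below -1 were 3.33% and 7.85%, and above 1 were 2.19% and 8.57%. Thus 1 gene of 15 or 2 of 15 below -1 is too few to be set apart from the share of all genes. Of the other cytosolic HSP70s and HSP110s, 6 rows were compared, HSPA14 holding 2 of them, with medians of -0.03 in HCT116 and -0.33 in LOVO. HSPA1L, an HSP70 gene next to HSPA1A, was at 0.12, 0.28, 0.59 and 3.54 FPKM (difference of 1.51 in LOVO), and HSPA2, a testis-rich HSP70, at 1.63, 1.77, 0.48 and 2.05 (1.04). HSPA14 (the lower of its rows at -0.38 and -0.89) and HSPA4L (-0.15 and -0.75) were the lowest. HSPA6, a strictly inducible HSP70 that was left out for its low mean and named after its values were seen, was at 0.14, 0.05, 0.05 and 1.40 FPKM. HSPA1L passed the filter on low values only through LOVO spheroids, and HSPA4, both HSPA14 rows and HSPA4L were lower there than in adherent LOVO cells.

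The 12 other cytosolic J-domain co-chaperones had no member past 1 in either line, with medians of 0.03 in HCT116 and -0.44 in LOVO. The highest were DNAJB5 (0.09 and 0.72) and DNAJB2 (0.04 and 0.49), and the lowest DNAJC9 (-0.57 and -0.84) and DNAJC21 (-0.37 and -0.49). Among 8 HSP70 exchange factors and regulators the medians were -0.34 and -0.48, and 2 were below -1 in LOVO, BAG1 (78.6 to 26.0 FPKM, -1.56) and BAG2 (18.7 to 6.49 FPKM, -1.39), both exchange-factor family members. BAG5 (0.07 and 0.19) and BAG4 (0.04 and 0.02) were the highest.

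Of 20 HSP90 co-chaperones 19 were compared and none was past 1, with 15 lower in HCT116 spheroids (median -0.21) and 17 lower in LOVO spheroids (median -0.41). PTGES3, the p23 that stabilises closed HSP90, was at 112, 62.4, 85.0 and 46.9 FPKM (-0.83 and -0.84), and RUVBL2, an ATPase of the R2TP complex, at 66.8, 33.4, 46.2 and 28.8 (-0.98 and -0.66). CDC37, the kinase co-chaperone, differed by -0.03 and 0.22 and CHORDC1 by 0.38 and -0.20. HSP90AA1 and these co-chaperones were thus mostly on the lower side in the spheroids of both lines on the FPKM scale.

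The cytosolic chaperonin TRiC and its partner prefoldin, 15 genes, were lower in spheroids for 14 genes in HCT116 (median -0.42) and for all 15 in LOVO (median -0.61), and 1 and 2 of them were below -1. CCT5 (61.9, 44.1, 196 and 83.2 FPKM, -0.48 and -1.23) and CCT7 (126, 93.9, 129 and 52.9, -0.42 and -1.27) were the lowest, and PDCL3 (0.17 and -0.54) and PFDN5 (-0.03 and -0.44) the highest. PFDN2, the 1 gene below -1 in HCT116, differed by -1.19 there and -0.09 in LOVO, and was named after its values were seen.

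HSPD1 and HSPE1 were set beside 15 other mitochondrial chaperones and proteases. Of these, 12 were lower in HCT116 spheroids (median -0.41, 1 below -1) and 10 in LOVO spheroids (median -0.50, 4 below -1). LONP1, the matrix protease, was at 45.1, 20.0, 82.7 and 31.9 FPKM (-1.14 and -1.35) and GRPEL2, an exchange factor of mitochondrial HSP70, at 17.5, 9.35, 18.6 and 6.29 (-0.84 and -1.43). HSPA9, mitochondrial HSP70 itself, differed by -0.76 and -1.25 and AFG3L2, a membrane protease, by -0.46 and -1.10, and both were named after their values were seen. At the other end stood SPG7 (0.23 and 0.87) and CLPB (0.22 and 0.27). HSPD1, HSPA9, LONP1, GRPEL2 and AFG3L2 were the lowest of this compartment in LOVO, all below -1.

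The chaperones of the endoplasmic reticulum (ER) leaned in opposite directions in the lines. Of 17, 16 were lower in HCT116 spheroids (median -0.68, 7 below -1) and 13 were higher in LOVO spheroids (median 0.31, 1 above 1). HSPA5 (BiP) was at 1073 FPKM in HCT116 grown adherent and 219 in its spheroids, against 243 and 281 in LOVO (-2.29 and 0.21). HERPUD1, an ER degradation factor, was lower in both lines (-2.73 and -0.88), DNAJC10 was 0.41 and -0.09 and PDIA6 was -0.40 and 0.54. PDIA4, the 1 gene above 1 in LOVO, was at -1.58 and 1.01 and was named after its values were seen.

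**Figure D5:**
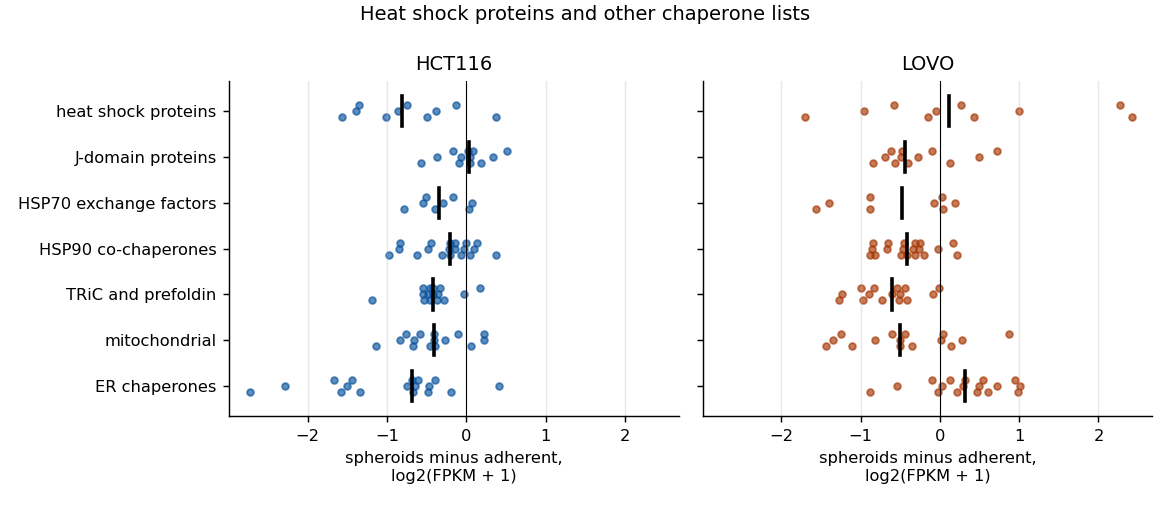
Difference between spheroids and adherent cells on the log2(FPKM + 1) scale for each gene compared of the heat shock proteins and 6 other chaperone lists, HCT116 on the left and LOVO on the right, with a point for each gene and a black bar at the list's median. The ER chaperones lie mostly below 0 in HCT116 (median -0.68) and mostly above it in LOVO (0.31), whereas TRiC and prefoldin lie mostly below 0 in both (-0.42 and -0.61).

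Of 5 heat shock factors and regulators, 4 were compared. HSF1 mRNA was at 22.0, 20.6, 22.0 and 24.6 FPKM, differing by -0.09 in HCT116 and 0.16 in LOVO, so its level moved far less than HSPA1A. HSF2 was at 12.7, 18.7, 8.19 and 8.46 FPKM and HSF4 at 1.87, 2.71, 3.27 and 9.39 (1.28 in LOVO), while HSBP1, which binds HSF1 trimers, differed by -0.07 and -0.03. Of 9 genes listed as further HSF1 targets, none was past 1 in HCT116 (median -0.42). Among them, SERPINH1 was also counted with the ER chaperones and CHORDC1 with the HSP90 co-chaperones, so the list is not free of chaperone genes. In LOVO 5 were higher and 4 lower, and 2 were above 1, where 8.57% of all genes were. The LOVO median (0.02) was the value of SERPINH1 itself, so it rests on keeping that gene in the list. The 2 above 1 were IER5, which helps dephosphorylate HSF1, at 32.2, 31.4, 8.31 and 22.8 FPKM (1.35), and DEDD2, a death effector domain protein, at 16.6, 16.7, 6.68 and 15.9 (1.14). CACYBP (-0.60 and -0.67) and MRPL18 (-0.42 and -0.35) were the lowest. As for HSPA1B, the adherent LOVO library was the lowest of the 4 for IER5 and DEDD2.

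Genes with the most similar pattern over the 4 libraries were found by the Euclidean distance between log2(FPKM + 1) values centred on each gene's mean, among 8145 genes with a mean of at least 5 FPKM. With 4 points many genes lie close to any pattern, and the distances are a description. Nearest to HSPA1A were CXCL2, a chemokine (distance 0.623, 1.77, 0.714, 8.36 and 42.5 FPKM), HIST1H3B, a histone H3 gene (0.724, 0.477, 0.145, 3.12 and 19.3 FPKM), and EBP, a sterol isomerase (0.953). CXCL2 and HIST1H3B passed the filter of 5 FPKM only through LOVO spheroids, the library where HSPA1A was highest. Their likeness to HSPA1A is therefore partly selected. Nearest to HSPH1 were LTBP3 (0.0615, 12.1, 15.8, 6.88 and 15.7 FPKM), PLBD2 (0.118) and IRF2BPL (0.140). HSPA1A thus had no gene as near to it as HSPH1 did. Among the genes nearest to HSP90AB1 were TOB2 (0.0782) and the G protein subunit GNG5 (0.0968). HSPD1 was nearest to SARS, the seryl-tRNA synthetase (0.136, 77.7, 37.7, 87.7 and 23.5 FPKM), MTHFD1L, a mitochondrial folate enzyme (0.153), and TIMM44, a part of the mitochondrial import motor (0.161). Among the members themselves, HSPA8 and HSP90AB1 were the closest pair, at 0.535.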

How the data were processed

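RNA was extracted from the adherent cells and spheroids of HCT116 and LOVO with a column kit and made into libraries with the SMARTER mRNA-Seq kit, 1 library for each of 4 conditions. The authors deposited 1 table of FPKM values per gene. Its gene coordinates are those of GRCh38, while the submitters' processing notes list the mouse builds GRCm38 and mm10. The aligner, the counter and its treatment of strand and of reads that fit several genes are not given in the sources used here. The study's methods name a test made for counts, which the deposited unit does not suit, so limma 3.58.1 (R 4.3.3, trend) was used on log2(FPKM + 1), with 1 as pseudocount.

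Genes with a mean of at least 1 FPKM over the 4 libraries were compared (14429 of 58735). Within a line there is no replicate and no p, and a gene was called past a difference of 1, or 2, on the log2(FPKM + 1) scale. The values above 0 were whole multiples of 1 read in each library (100% within 0.01 of a whole number), so the reads behind each FPKM were recovered and gave 95% exact (Clopper-Pearson) counting intervals. A count of 0 allows up to 3 reads, or 0.147 to 0.179 FPKM for a gene of 1 kb. The calculations ran in Python 3.11.15 (scipy 1.17.1, pandas 2.3.3, numpy 2.4.6) and were tested on simulated data.

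The members and lists were chosen with earlier results of these data known. The text names all members, 4 ratios between them, the 2 highest and 2 lowest compared genes of each list by mean difference over both lines, and the 3 genes nearest in pattern to 4 members, of which 1 is not reported here. Other pseudocounts, scalings, filters and thresholds were tried.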

Additional observations from a re-analysis of the deposited data

Results flagged for a closer look

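For 4 members the spheroid libraries lay on opposite sides of the adherent libraries in the 2 lines, which is what marked them for a closer look. On the TPM scale DNAJB1 and HSP90AB1 did so too, and the share of all genes doing so was not counted. For HSPA8 the HCT116 side was small (-0.13) and depends on the library size behind FPKM. The log2 ratio of FPKM in LOVO minus that in HCT116 was 3.98 for HSPA1A, 3.93 for HSPA1B, 1.30 for HSPB1 and 0.40 for HSPA8. With 1 library per condition in each line, the difference between the lines was not tested. HSPA1A and HSPA1B share most of their sequence, so their values are not separate observations.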

How the results depend on the processing

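The members' differences rest on 1 library against 1, so no value here has a check against other cultures. The members' median in HCT116 (-0.81) was -0.80 with TPM, -0.84 with TMM-style scaling, -0.78 centred on the median of all genes and -0.75 with HSPA1A and HSPA1B summed. In LOVO (0.11) it was 0.32 with TPM, 0.15 with TMM-style scaling, 0.17 centred, -0.049 with the pair summed and 0.35 without HSPD1 and HSPE1, and the last 2 choices were made after the data were seen. TPM also moved the median of all genes in LOVO from -0.06 to 0.10, beside which DNAJB1 stood at 0.15 and HSP90AB1 at 0.06. No member was below -2 in either line (0 of 10), and without HSPD1 and HSPE1 0 of 8 members were below -1 in LOVO. Without a filter on low values, over 58735 genes, the shares of all genes past 1 were 0.885% above and 0.999% below in HCT116 and 2.69% and 2.15% in LOVO. Limma called 0 genes under each of the 4 alternatives, with the smallest adjusted p between 0.363 and 1.00, and 163 to 1513 genes had an unadjusted p below 0.05. Of 104 alternatives for members' differences within a line and for ratios, 24 moved the value beyond its counting interval. A reversal was looked for only in differences past 1, and 0 were found. The shifts were far smaller than 1, so they could not have reversed such a difference. Below that limit, DNAJB1 in LOVO changed sign with TPM and when centred, and HSP90AB1 in LOVO with TPM. The labels give no replicate numbers, so the lines were the only pairing of spheroids with adherent cells, and limma without that pairing gave the 163 genes above.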
